A study of Mus musculus with 6 samples.

Results

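The genes described here encode the subunits of the transcription factor NF-kB and the proteins that inhibit or modify it. The 10 genes were chosen by name, with earlier results of these data known: the subunit genes Rel, Rela, Relb, Nfkb1 and Nfkb2 and the inhibitor genes Nfkbia, Nfkbib, Nfkbie, Nfkbid and Nfkbiz. All 10 were found among the 11162 entries of the expression table, and all 10 passed the filter on low values, as did 9351 genes in all. RNA had been sequenced from naive CD8 T cells of mouse spleen, in 3 libraries of cells with a bright (GFP-hi) and 3 of cells with a dim (GFP-lo) Nur77-GFP reporter. Cells of both groups came from mice with the transgene Tg(Nr4a1-EGFP)GY139Gsat, in which regulatory sequence of Nr4a1 drives green fluorescent protein, so the reporter is not the endogenous gene. Both groups were labelled OT-I, a transgenic T-cell receptor, and both were sorted as CD8+, CD44lo, CD62Lhi and Qa2hi. Age, treatment and the number of mice behind a library were not given in the sources used here, so p-values measure the spread between these libraries, which may be technical.

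NF-kB is a family of dimers built from 5 related subunits. In resting cells the dimers are held in the cytoplasm by inhibitor proteins of the IkB type. Signals from the T-cell receptor and from costimulatory receptors activate the IkB kinase, the inhibitor is destroyed and the dimer enters the nucleus. A slower route, driven by receptors of the TNF family, processes the Nfkb2 product p100 and releases dimers with the Relb product. Several genes of the family are themselves known targets of NF-kB, among them Nfkbia, Nfkbie, Nfkb2 and Relb, so transcript levels are commonly read as a trace of pathway activity, while the activity itself lies in protein location and was not measured here.

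Values are RPKM, reads per kilobase of gene scaled to library size, as the authors deposited them. Read depth, recovered from the spacing of low RPKM values, was 26170000 to 35940000 reads per library, and 1 kilobase of transcript at an RPKM of 1 rested on 26.17 to 35.94 reads. At the length of its longest annotated transcript, the least covered member value, Nfkb1, rested on about 584 reads and the best covered, Nfkbia, on about 9822. Libraries were alike, with Pearson's r across genes (no independent replicates) from 0.988 to 0.996 over the 6 pairs within a group and from 0.98 to 0.991 over the 9 pairs between groups. Replicate 2 of each group stood apart in heat-shock genes: Hspa1a was 1100 and 1234 RPKM in GFP-hi and GFP-lo replicate 2, and at most 235 RPKM in the other 4 libraries. Of 10 CD8 T cell markers 9 were listed, with summed levels of 1610 to 1720 RPKM in GFP-hi and 1560 to 1630 RPKM in GFP-lo, and Cd8a, Cd8b1 and the CD3 genes were among them. All 8 naive T cell markers were listed, with sums of 1810 to 2130 RPKM in GFP-hi and 2000 to 2320 RPKM in GFP-lo. Of these, Il7r (means 64.0 and 112 RPKM) and Tcf7 (414 and 431 RPKM) were lower in GFP-hi without overlap. The other naive T cell markers overlapped. The transcript of the reporter, GFP, was at 214, 262 and 215 RPKM in GFP-hi and 216, 215 and 191 RPKM in GFP-lo, and these groups overlapped.

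The levels of the 10 genes spanned a wide range. Nfkbia, the inhibitor IkB-alpha and the fastest to be remade after activation, was by far the most abundant at 149 ± 26.4 RPKM (SD, n = 6 libraries), above 98.8% of all genes tested. Rela (39.8 ± 3.62 RPKM) and Nfkbid (31 ± 4.84 RPKM) came next and their ranges overlapped. Nfkb2 (21.6 ± 2.82 RPKM) and Nfkbiz (20.7 ± 1.87 RPKM) did not differ beyond their spread. Nfkbib (16.8 ± 1.46 RPKM) and Relb (12.5 ± 1.11 RPKM) each stood apart from their neighbours in the order, with no overlap over the 6 libraries. Nfkbie (9.53 ± 1.27 RPKM) overlapped Rel (7.56 ± 0.925 RPKM), and Rel overlapped Nfkb1 (5.59 ± 0.604 RPKM), the least abundant member. These ranges pool the 6 libraries. Within single libraries Nfkbie was above Rel in all 6, Rel above Nfkb1 in 5, Rela above Nfkbid in 5 and Nfkb2 above Nfkbiz in 4. The order uses RPKM, which is per length, and the gene lengths the authors used were not given in the sources used here.

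**Figure D1:**
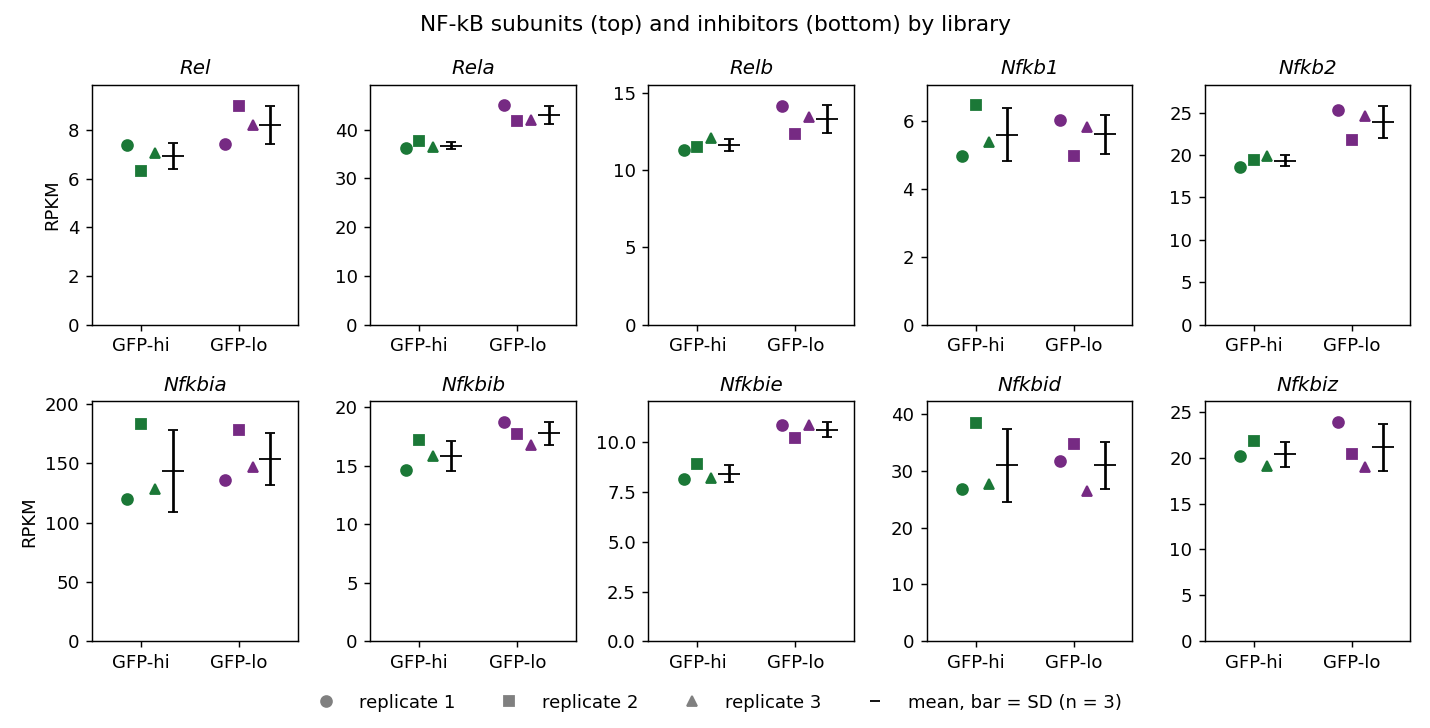
RPKM of each member by library. Each panel is 1 gene, with GFP-hi in green and GFP-lo in purple on the x axis, RPKM from 0 on the y axis, marker shape giving the replicate and the black bar giving mean and SD (n = 3). Rel, Rela, Relb, Nfkb2 and Nfkbie show separate groups, whereas the square markers (replicate 2) are the highest of their group in both groups for Nfkbia and Nfkbid.

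The comparison of GFP-hi with GFP-lo cells addresses how cells with a brighter reporter differ in the transcripts of this pathway. All 10 genes had a lower mean in GFP-hi and a negative log2 fold change, against 44.5% of all genes tested with a negative one. For Nfkb1 and Nfkbid the group means were nearly equal (0.107% and 0.00754% lower). The differences were small, and only Nfkbie passed the test. Its limma log2 fold change on the log2(RPKM + 1) scale was -0.31 with an adjusted p of 0.030 over all 9351 genes tested. Lower calls made up 1.49% of all genes tested and higher calls 2.46%. By unadjusted p under 0.05, 5 of 10 members were lower, against 7.3% of all genes tested. In 5 of 10 members each GFP-hi library lay below each GFP-lo library, against 9.84% of all genes, and in 0 members the reverse held, against 17.1%. The members' median log2 fold change was -0.17, beside 0.02 for all genes tested. With 10 genes chosen by name these counts describe the list and were not tested as a set.

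**Figure D2:**
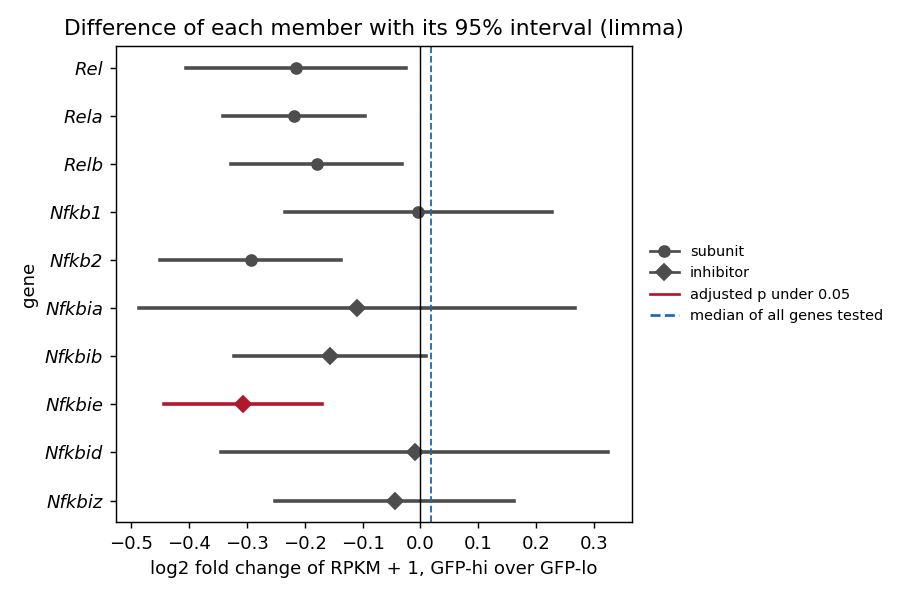
Log2 fold change of RPKM + 1, GFP-hi over GFP-lo, for each member on the x axis, with its 95% interval from limma. Circles are subunits, diamonds inhibitors, red marks an adjusted p under 0.05 and the dashed line is the median of all genes tested (0.02); Nfkbie is the one red gene, and the intervals of Nfkb1, Nfkbia, Nfkbib, Nfkbid and Nfkbiz include 0.

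Promoter sequences from RefSeq (GRCm38.p6, the assembly of the mm10 build that the submitters' processing notes name) were matched for 7 members. Relb, Nfkb1 and Nfkbiz had no entry. The stretches of 250 bases before an annotated start are shown for Nfkbie, the member that passed the test, Nfkb2, the subunit gene with the largest fold change, and Nfkbia, the most abundant member. Capitals mark a match to the NF-kB consensus on either strand. Sequences run 5′ to 3′ on the strand of the gene.
Nfkbie, chr17:45555450-45555699, plus strand, outside annotated genes: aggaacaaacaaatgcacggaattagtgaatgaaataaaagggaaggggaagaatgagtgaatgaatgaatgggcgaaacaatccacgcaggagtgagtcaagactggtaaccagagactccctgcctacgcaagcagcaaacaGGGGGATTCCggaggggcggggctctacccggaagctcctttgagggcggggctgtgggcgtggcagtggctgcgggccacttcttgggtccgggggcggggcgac
Nfkb2, chr19:46305445-46305694, plus strand, an intron of longer Nfkb2 transcripts: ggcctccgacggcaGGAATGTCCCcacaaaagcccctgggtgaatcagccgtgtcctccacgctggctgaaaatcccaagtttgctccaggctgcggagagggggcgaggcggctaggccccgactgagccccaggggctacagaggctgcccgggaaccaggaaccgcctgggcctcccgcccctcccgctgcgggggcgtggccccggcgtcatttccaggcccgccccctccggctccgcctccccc
Nfkbia, chr12:55492648-55492897, minus strand, outside annotated genes: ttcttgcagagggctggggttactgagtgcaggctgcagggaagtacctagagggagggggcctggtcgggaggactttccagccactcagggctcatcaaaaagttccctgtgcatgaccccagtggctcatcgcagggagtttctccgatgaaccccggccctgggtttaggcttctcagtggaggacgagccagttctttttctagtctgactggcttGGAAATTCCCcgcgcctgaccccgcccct

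The Nfkbie stretch holds GGGGGATTCC beginning 106 bases before the start, and the Nfkbia stretch holds GGAAATTCCC beginning 29 bases before it. The Nfkb2 stretch shown, which also overlaps the gene AC114539.1, holds GGAATGTCCC, and a further match, GGGACTTTCC, begins at base 11 of the transcript. Nfkb2 has 3 annotated starts, each with at least 1 match in its window of 250 bases before and 50 after the start. The stretch before the first start, not shown, holds 3 matches, some sharing bases. The window of the last start holds that same GGGACTTTCC as its only match. In windows of that size 5 of the 7 matched members (Rel, Nfkb2, Nfkbia, Nfkbie and Nfkbid) hold the NF-kB consensus in at least 1 window, against 5.14% of 27025 genes. A gene with more starts has more windows to match. By window, 7 of 11 member windows hold it, against 4.51% of 32851 windows. Both strands were searched, and overlapping matches can share bases. Rela and Nfkbib hold no match in their windows. A match describes these letters only and was not taken as a bound site.

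Nfkb2 and Relb encode the subunits of the slower route. Nfkb2 (Entrez 18034, chr19:46300994-46312400) encodes p100, which restrains dimers until it is processed to p52. It was at 18.6, 19.4 and 19.9 RPKM in GFP-hi and at 25.3, 21.8 and 24.6 RPKM in GFP-lo libraries. The groups did not overlap, and the lowest GFP-lo library was replicate 2. The GFP-hi mean was 19.3% below the GFP-lo mean, with a log2 fold change of -0.29 (standard error 0.068, 95% interval -0.45 to -0.14), and limma gave an adjusted p of 0.057, just outside the threshold. Nfkb2 passed in 6 of 18 alternatives, among them each of the 3 other scalings (adjusted p 0.037 to 0.0495). With the scaling as deposited it also passed with a covariate for dissociation and heat-shock genes (0.034) and, barely, with robust eBayes. Its exons share 11.6% of their bases with AC114539.1 and 6.52% with Psd, and the use of strand in counting was not given, so reads in that part cannot be assigned for certain.

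Relb (Entrez 19698, chr7:19606217-19629438) encodes the subunit that pairs with p52. Its values were 11.3, 11.5 and 12.04 RPKM in GFP-hi and 14.1, 12.3 and 13.4 RPKM in GFP-lo libraries. The groups did not overlap, but GFP-hi replicate 3 and GFP-lo replicate 2 lay close together. The log2 fold change was -0.18 (standard error 0.064, interval -0.33 to -0.03), and it did not pass (limma adjusted p = 0.17).

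Rela, Rel and Nfkb1 encode the subunits of the fast route. Rela (Entrez 19697, chr19:5637442-5648134), the p65 subunit that carries a transactivation domain, was the most abundant subunit. It was at 36.2, 37.6 and 36.4 RPKM in GFP-hi and at 45.05, 41.7 and 42.0 RPKM in GFP-lo libraries. The 3 GFP-hi libraries lay close together and below each GFP-lo library. The log2 fold change was -0.22 (standard error 0.053, interval -0.34 to -0.10) with a limma adjusted p of 0.065. It passed in 4 of 18 alternatives, among them trimmed mean of M values scaling (limma adjusted p = 0.036) and quantile normalization (0.029). With median centring it did not pass (0.052).

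Rel (Entrez 19696, chr11:23736847-23770969) encodes c-Rel, a subunit prominent in lymphocytes. It was at 7.39, 6.33 and 7.04 RPKM in GFP-hi and at 7.41, 8.98 and 8.20 RPKM in GFP-lo libraries. The groups were separate by a narrow margin, since GFP-hi and GFP-lo replicate 1 were nearly equal. The log2 fold change was -0.22 (standard error 0.082, interval -0.40 to -0.03; limma adjusted p = 0.20). Nfkb1 (Entrez 18033, chr3:135584655-135691969), which encodes p105 and its product p50, was at 4.95, 6.44 and 5.37 RPKM in GFP-hi and at 6.03, 4.95 and 5.80 RPKM in GFP-lo libraries. These groups overlapped fully. Its log2 fold change was -0.0040, with an interval from -0.23 to 0.23 (limma adjusted p = 0.99), so a change of a size like that of Nfkb2 is not within the interval, while smaller ones in either direction are.

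The share of each subunit in the summed RPKM of the 5 subunits does not depend on how a library is scaled. Rela held 45.8% ± 0.610 in GFP-hi and 45.7% ± 0.935 in GFP-lo (SD, n = 3 each). Nfkb2 held 24.1% ± 0.462 against 25.4% ± 1.03 and overlapped. Nfkb1 held 6.31%, 7.93% and 6.65% in GFP-hi and 6.15%, 5.52% and 6.17% in GFP-lo, the one subunit whose share was separate between the groups. An exact two-sided permutation test gave p = 0.1 for that share, the smallest that 3 libraries against 3 allow, and 0.5 after adjustment over the 5 shares. The remaining shares had exact permutation p values of 0.2 (Nfkb2), 0.5 (Relb), 0.8 (Rela) and 0.9 (Rel) before adjustment. The summed subunit level was 78.4, 81.3 and 80.7 RPKM in GFP-hi and 98.0, 89.7 and 94.0 RPKM in GFP-lo libraries, without overlap. In such bulk libraries, fewer cells with a transcript and less transcript per cell cannot be told apart.

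Among the cytoplasmic inhibitors, Nfkbie (Entrez 18037, chr17:45555700-45563169) encodes IkB-epsilon. It was at 8.15, 8.91 and 8.20 RPKM in GFP-hi and at 10.9, 10.2 and 10.9 RPKM in GFP-lo libraries. Each GFP-hi library lay more than 1 RPKM below each GFP-lo library. The GFP-hi mean was 20.9% lower (log2 fold change -0.31, standard error 0.059, interval -0.44 to -0.17), and Nfkbie ranked 261 of 9351 genes by p. The call depended on which library was left out. It held without GFP-hi replicate 2 (limma adjusted p = 0.025) and was lost on leaving out, among GFP-hi libraries, replicate 1 (0.12) or replicate 3 (0.12), and, among GFP-lo libraries, replicate 1 (0.084), replicate 2 (0.080) or replicate 3 (0.12), while the fold change stayed between -0.34 and -0.29.

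Nfkbib (Entrez 18036, chr7:28758251-28766644) encodes IkB-beta, which is degraded more slowly than IkB-alpha. It was at 14.6, 17.2 and 15.8 RPKM in GFP-hi and at 18.8, 17.7 and 16.8 RPKM in GFP-lo libraries. GFP-hi replicate 2 lay above GFP-lo replicate 3, so the groups overlapped, and the log2 fold change of -0.16 did not pass (limma adjusted p = 0.28). Its exons share 14.5% of their bases with Ccer2 and 1.94% with Sirt2.

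Nfkbia (Entrez 18035, chr12:55489409-55492647) was at 120, 183 and 128 RPKM in GFP-hi and at 136, 178 and 146 RPKM in GFP-lo libraries. Replicate 2 was the highest of both groups, and the groups overlapped. The log2 fold change was -0.11 with a wide interval from -0.49 to 0.27 (limma adjusted p = 0.78), and the SD within groups was larger than that of 97.1% of genes tested. Nfkbid (Entrez 243910, chr7:30421731-30428749) encodes the nuclear inhibitor protein IkB-NS, which acts on NF-kB bound to DNA. It was at 26.9, 38.4 and 27.7 RPKM in GFP-hi and at 31.7, 34.7 and 26.5 RPKM in GFP-lo libraries. Here too replicate 2 was the highest of both groups. Its log2 fold change was -0.0100 (interval -0.34 to 0.32, limma adjusted p = 0.98), and its SD within groups exceeded that of 95.7% of genes. The heat-shock genes were highest in the same 2 libraries: Hspa1b was at 1904 and 2133 RPKM in replicate 2 of GFP-hi and GFP-lo, and at 344 to 503 RPKM in the others. The summed level of the 28 listed genes of the dissociation and heat-shock list was 4840, 9190 and 4840 RPKM in GFP-hi and 5920, 10200 and 5840 RPKM in GFP-lo. Their part in the levels of Nfkbia and Nfkbid was not tested. In the 4 libraries without replicate 2, Nfkbie had a larger fold change (-0.37) that no longer passed (limma adjusted p = 0.064), and no other member passed. In those libraries the fold change of Rel was -0.0996 and that of Nfkb1 -0.167, against -0.22 and -0.0040 over all 6.

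Nfkbiz (Entrez 80859, chr16:55811375-55838954) encodes IkB-zeta, a nuclear member of the family. It was at 20.2, 21.8 and 19.1 RPKM in GFP-hi and at 23.9, 20.4 and 19.0 RPKM in GFP-lo libraries. The groups overlapped, with GFP-lo replicates both highest and lowest, and the log2 fold change was -0.04 (interval -0.25 to 0.16, limma adjusted p = 0.83).

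The summed level of the 5 inhibitors over that of the 5 subunits was 2.42, 3.32 and 2.46 in GFP-hi and 2.25, 2.91 and 2.33 in GFP-lo libraries. The ratio was highest in replicate 2 of both groups, and Nfkbia made up 61.4% to 68.2% of the inhibitor sum. The groups overlapped (exact two-sided permutation test of log2 ratios, p = 0.5, with 0.1 the smallest possible).

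**Figure D3:**
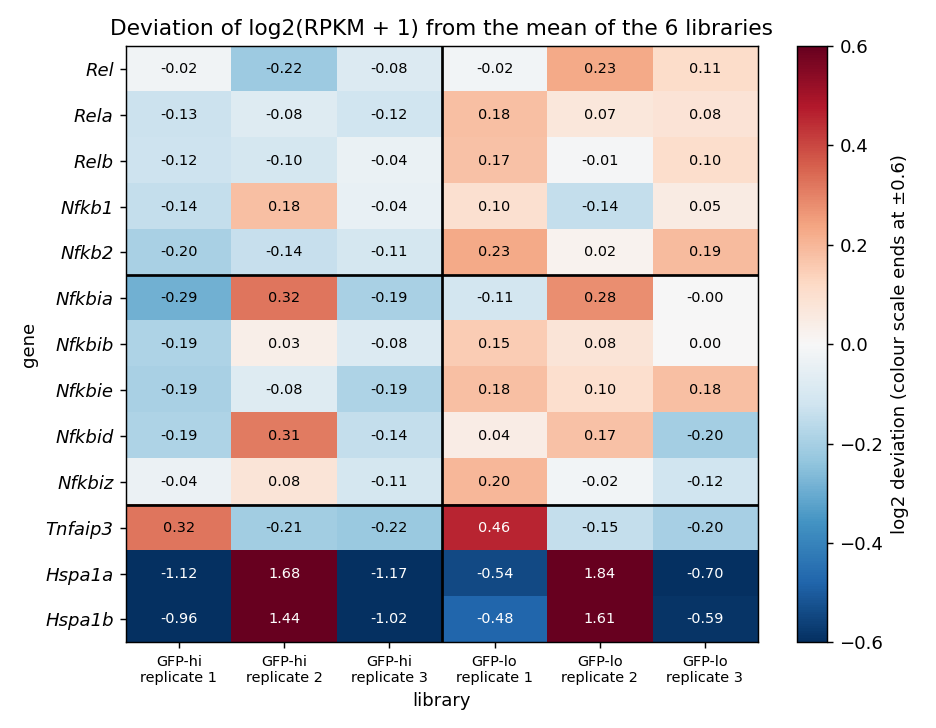
Deviation of log2(RPKM + 1) from the mean over the 6 libraries, by gene (y axis) and library (x axis), with the value printed in each cell and the colour scale ending at ±0.6. Horizontal lines divide subunits, inhibitors and 3 further genes. Rela, Nfkb2 and Nfkbie are below 0 in each GFP-hi library and above 0 in each GFP-lo library, whereas Nfkbia and Nfkbid are highest in replicate 2 of both groups, as are Hspa1a and Hspa1b, and Tnfaip3 is highest in replicate 1 of both.

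Likeness of pattern was measured by Pearson's r of log2(RPKM + 1) over the 6 libraries, for which the highest values are near 1 for any gene among so many. Relb was most like Birc3 (r = 0.998), Acsbg1 (0.993) and Rab11fip3 (0.993), and Nfkb2 was its nearest member (0.981, the 7th of all genes). Nfkb2 was most like Parp10 (0.988), Fam234a (0.987) and Acsbg1 (0.987). Nfkbie was most like Rab20 (0.998), H2-Q4 (0.992) and Mfsd14a (0.988), and Rela like Pitpnc1 (0.999), Tmem8 (0.997) and Ccdc126 (0.995). For Nfkbie and Rela the nearest member was the other (0.965). For 3 members the nearest other member ranked low among all genes: Nfkbie for Rel (r = 0.565, rank 1223), Nfkbib for Nfkb1 (r = 0.509, rank 1357) and Nfkbib for Nfkbiz (r = 0.649, rank 1131).

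The remaining genes of the pathway were read from lists of upstream, restraining, target and receptor genes. Over these lists 98 genes were tested, of which 3 were called higher and 5 lower, against 2.46% and 1.49% of all genes tested. Of 32 kinase and adaptor genes, which carry signals from receptors to the IkB kinase and the dimers, 0 were called higher and 1 lower, with a median log2 fold change of -0.05. That gene was Traf5, an adaptor of TNF-family receptors, at 10.1, 10.3 and 9.43 RPKM in GFP-hi and 16.5, 12.7 and 13.1 RPKM in GFP-lo libraries (log2 fold change -0.46, limma adjusted p = 0.038). The Traf5 call was kept without GFP-lo replicate 1 and lost without any other single library (adjusted p up to 0.12). Traf1, another such adaptor, had -0.25 (adjusted p = 0.057), and Ikbkb, the catalytic subunit IKK-beta, had -0.19 (adjusted p = 0.098). Both had separate groups. In this list 5 genes were separate and lower in GFP-hi and 1 separate and higher, against 9.84% and 17.1% of all genes tested. The most abundant of the list, Prkcq (protein kinase C-theta, 71.7 RPKM) and Rbck1 (HOIL-1 of the linear ubiquitin ligase, 70.6 RPKM), had -0.03 and -0.06.

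Of 20 further restraining genes tested, 0 were called in either direction by limma, and the median log2 fold change was 0.0017. At an unadjusted p under 0.05, 2 were lower and 2 higher, beside 683 lower and 1202 higher among all 9351 genes tested. Tnfaip3, which encodes the ubiquitin-editing enzyme A20 and is among the best known NF-kB targets, was at 57.0, 39.1 and 38.7 RPKM in GFP-hi and at 62.6, 40.9 and 39.3 RPKM in GFP-lo libraries. Replicate 1 was the highest of both groups, and the groups overlapped (log2 fold change -0.07, adjusted p = 0.88). Otulin, a deubiquitinase for linear chains, had 0.09 (adjusted p = 0.55). Commd1 (0.28, adjusted p = 0.11) and Tank (0.20, adjusted p = 0.12) had the smallest p values and higher means in GFP-hi.

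Of 28 reported target genes tested, 1 was called higher and 1 lower, with a median log2 fold change of -0.05. Cd83, a surface marker of activated cells, was at 1.63, 1.36 and 1.99 RPKM in GFP-hi and 0.745, 0.886 and 0.873 RPKM in GFP-lo (log2 fold change 0.53, or 0.90 with a pseudocount of 0.1, limma adjusted p = 0.028). Its GFP-lo mean was 0.835 RPKM, so it passed the filter on low values only through GFP-hi. Tnfsf8, which encodes CD30 ligand, had -0.96 (adjusted p = 0.0056). The lymphotoxin gene Ltb had -0.21 (adjusted p = 0.12), the adhesion gene Icam1 -0.21 (0.080) and the AP-1 gene Junb, which the dissociation list holds too, -0.47 (0.080), each with separate groups. Among all 28 targets, 6 were separate and higher in GFP-hi and 6 separate and lower. Over all genes tested these shares were 17.1% and 9.84%. Cd83 lost its call without any 1 library other than GFP-hi replicate 2 (adjusted p up to 0.092).

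Of 18 receptor genes tested, 2 were called higher and 3 lower, with a median log2 fold change of -0.0049. Tnfrsf9, the costimulatory receptor 4-1BB and a driver of both NF-kB routes, was at 7.48, 6.45 and 7.37 RPKM in GFP-hi and 1.44, 1.04 and 1.34 RPKM in GFP-lo libraries. It thus moved opposite to Nfkbie (log2 fold change 1.83, limma adjusted p = 9.7e-05). Tnfrsf13b, which encodes the receptor TACI, rose by 0.53 (adjusted p = 0.0047). The chains of the interleukin 18 receptor fell. In GFP-hi and GFP-lo, Il18r1 had means of 0.923 ± 0.280 and 3.53 ± 0.749 RPKM, and Il18rap of 0.958 ± 0.218 and 2.37 ± 0.504 RPKM (SD, n = 3 each). Il18r1 fell by 1.23 and Il18rap by 0.78 on the log2 scale (limma adjusted p 0.0048 and 0.017). Both had GFP-hi means under 1 RPKM and passed the filter on low values only through GFP-lo. At such low levels the pseudocount sets the size: with 0.1 in place of 1 the log2 fold changes were -1.84 and -1.22. Tlr1 fell by 0.41 (adjusted p = 0.024). Cd27 (-0.02) and Cd28 (-0.11), the most abundant that did not pass, had adjusted p values of 0.90 and 0.48. Tnfrsf1a (0.09) and Tnfrsf4 (-0.18) had the smallest p values among those that did not pass (limma adjusted p 0.44 and 0.45). Il18rap lost the call when replicate 1 of GFP-hi, or replicates 2 or 3 of GFP-lo, were left out singly (adjusted p up to 0.073), and Tlr1 lost it without any 1 library other than GFP-hi replicate 3 (up to 0.088). Tnfrsf9, Tnfrsf13b and Il18r1 kept it in the 6 fits without 1 library, and in the 4 libraries without replicate 2 Tnfrsf9 alone kept it. The fold changes of the others there were 0.52 for Tnfrsf13b, -1.05 for Il18r1, -0.75 for Il18rap and -0.41 for Tlr1.

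**Figure D4:**
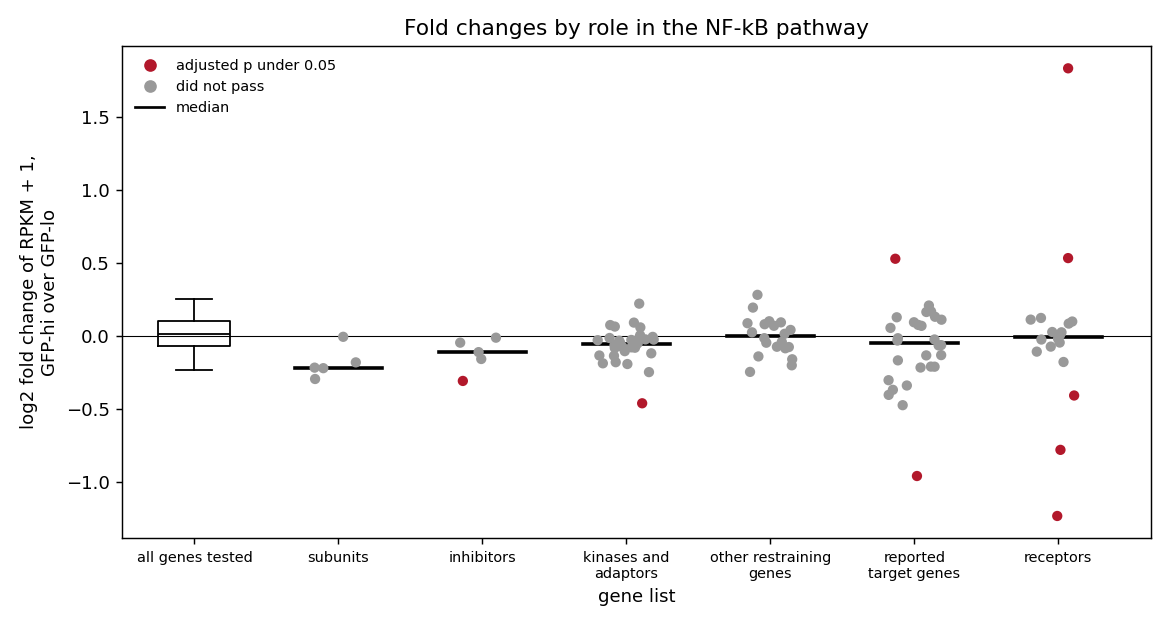
Log2 fold changes of RPKM + 1, GFP-hi over GFP-lo (y axis), by gene list (x axis). Points are genes, red for an adjusted p under 0.05, black lines are medians, and the box for all genes tested spans the quartiles with whiskers at the 5th and 95th percentile. The medians are -0.22 for subunits and -0.11 for inhibitors, against -0.05 to 0.0017 for the 4 pathway lists.

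NF-kB genes are also expressed by other blood cells, so their markers are given beside these results. Of 10 B cell markers 4 were listed, and Cd79a and Pax5 were not; their summed level, mostly Cd79b, was 12.8 to 14.4 RPKM in GFP-hi and 11.1 to 11.6 RPKM in GFP-lo. Of 13 myeloid markers 3 were listed, and Lyz2, Csf1r and Adgre1 were not; the sum was 18.7 to 33.1 RPKM in GFP-hi and 33.9 to 53.9 RPKM in GFP-lo, nearly all of it Ly6c2, which T cells also express. Of 6 CD4 and regulatory T cell markers 2 were listed, and Cd4, Zbtb7b and Foxp3 were not; the sum, mostly Cd40lg, was 15.8 to 25.6 RPKM in GFP-hi and 36.5 to 48.2 RPKM in GFP-lo. Of 7 NK cell markers 4 were listed, led by Nkg7 and Klrd1, which CD8 T cells also express; the sum was 373 to 394 RPKM in GFP-hi and 345 to 359 RPKM in GFP-lo. Of 7 erythroid markers 2 were listed, Car2 and the globin gene Hba-a1. Their sum was 4.36 to 5.74 RPKM for GFP-hi, against 2.38 to 3.54 RPKM for GFP-lo. That difference lay in Car2, whose mean was 4.19 RPKM (GFP-hi) against 2.13 RPKM (GFP-lo), with a limma adjusted p of 0.0036. Hba-a1 overlapped between the groups, with means of 0.701 RPKM (GFP-hi) against 0.787 RPKM (GFP-lo). The part of these sums in the members' differences was not tested.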

How the data were processed

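The authors deposited RPKM values in 1 column per library, per the file headers. STAR and the mm10 build are named in the submitters' processing notes; the read counter, the annotation and the rule for listing genes were not given in the sources used here. Titles tied columns to samples, and groups were taken from the labelled phenotype. A gene was tested where its RPKM averaged 1 or more over the 6 libraries (9351 tested, 1811 not) with limma 3.58.1 in R 4.3.3 on log2(RPKM + 1), with a mean-variance trend, no covariate, two-sided, Benjamini-Hochberg adjusted over all genes tested, threshold 0.05. Intervals are 95%. This scale understates changes of low genes. The fit was tested on simulated data with planted changes larger than those of any member and with no spread shared between libraries. That test does not bear on changes as small as the members'. Depth came from transcript lengths of single-transcript genes in GENCODE M21: in the step chosen, 88.4% to 92.2% of low values came within 0.1 of whole reads. PCR copies are counted among them, and true error exceeds counting error. The members and all lists were chosen with earlier results of these data known. Named from each pathway list were called genes, the 2 most abundant and the 2 of smallest p among the others; Hspa1a, Hspa1b and GFP, and the marker genes named, were chosen after their values were seen. Likeness names the 3 tested genes of highest r per member, shown in full for 4 members. Replicate numbers follow record order and were not used to pair libraries. Alternatives changed pseudocount, filter, scaling, variance model, covariate and libraries. Figures used matplotlib 3.10.9 under Python 3.11.15.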

Additional observations from a re-analysis of the deposited data

How the results depend on the processing

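Fold changes are log2 values. Rel, Rela, Relb, Nfkb2, Nfkbib and Nfkbie stayed negative in all 18 alternatives. The count of different genes was 369, and it was 202 with a minimum mean RPKM of 5, 810 with the dissociation and heat-shock covariate, 90 in the 4 libraries with lower Hspa1a and Hspa1b, and 134 to 298 without 1 library. The share of higher genes among these was 62.3%; trimmed mean of M values gave 52.1% (199 higher, 183 lower) and removal of the trend with transcript length 48.3% (234 higher, 250 lower), an alternative chosen after the data had been seen; across genes fold change fell with length (Spearman rho = -0.253). Nfkb2 passed at -0.30 after median centring (limma adjusted p = 0.0495), -0.32 under trimmed mean scaling, -0.31 under quantile normalization, -0.29 with robust eBayes (adjusted p just under the threshold), -0.32 with the covariate (0.034) and -0.30 with the length trend removed. Rela passed at -0.25 under trimmed mean scaling, -0.25 with quantile normalization, -0.22 with the covariate (0.047) and -0.25 with the length trend removed. Nfkbie lost its call at -0.37 in the 4 libraries. With the covariate Nfkb1 (0.0114), Nfkbia (0.0255) and Nfkbid (0.0982) turned positive.

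Without 1 library the fold changes ran from -0.34 to -0.29 for Nfkbie, -0.278 to -0.154 for Rel, -0.211 to -0.102 for Nfkbib, -0.0952 to 0.0658 for Nfkb1, -0.296 to 0.00892 for Nfkbia, -0.169 to 0.0801 for Nfkbid and -0.114 to 0.0453 for Nfkbiz. Those of Nfkb2 ran from -0.356 to -0.251, of Rela from -0.239 to -0.184 and of Relb from -0.228 to -0.137, without a call. The fold changes ran from -0.25 to 0.14 for Tnfaip3, -0.0578 to 0.0156 for Prkcq, -0.123 to 0.00707 for Rbck1, -0.0467 to 0.0157 for Cd27, 0.0148 to 0.144 for Otulin and -0.175 to -0.0635 for Cd28. Without 1 library, the group difference in share ran from -0.725 to 0.498 percentage points for Rel and from -0.405 to 0.498 for Rela, and that in the log2 ratio of inhibitors to subunits from -0.0252 to 0.237. In the 4 libraries the difference in share for Rel was 0.924.

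Called genes numbered 1 among kinases and adaptors, and 2 with median centring, 2 with trimmed mean of M values, 2 with quantile normalization, 4 with the covariate, 0 in the 4 libraries, 2 with the length trend removed and 0 to 1 without 1 library. Targets numbered 2, and 1 at the higher filter (which leaves out Cd83), 4 with quantile normalization, 4 with the covariate, 1 in the 4 libraries, 6 with the length trend removed and 1 to 4 without 1 library. Receptors numbered 5, and 2 at the higher filter (which leaves out Tnfrsf9, Il18r1 and Il18rap), 1 in the 4 libraries and 3 to 5 without 1 library. The median of restraining genes (0.0017) was negative with no filter (-0.0021), the higher filter (-0.0289), median centring (-0.0030), trimmed mean of M values (-0.0256), quantile normalization (-0.0207), the covariate (-0.0349), the 4 libraries (-0.0282) and the length trend removed (-0.0046), and ran from -0.018 to 0.0225 without 1 library. Without 1 library the receptor median ran from -0.0463 to 0.018, the kinase and adaptor median from -0.0698 to -0.0183 and the target median from -0.0824 to -0.013. The cause of these shifts was not tested. No paired analysis was possible because no label ties a GFP-hi to a GFP-lo library and the replicate numbers are only those of record order. Libraries of the same number had similar levels of Hspa1a (158 and 235, 1100 and 1234, 152 and 211 RPKM in GFP-hi and GFP-lo) and of Tnfaip3 (57.0 and 62.6, 39.1 and 40.9, 38.7 and 39.3 RPKM). Whether they share a mouse or a day is not known, so the fits count such spread as error.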
